A study of Homo sapiens with 36 samples.

Results

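The genes of the U3 and U8 small nucleolar RNAs (snoRNAs) were followed through the cytoplasmic and chromatin RNA of HCT116 cells, a human colon carcinoma line, after auxin treatment aimed at the ribonuclease DIS3. The 7 genes were chosen by name: the U3 genes SNORD3A, SNORD3B-1, SNORD3B-2, SNORD3C and SNORD3D, the U8 gene SNORD118, and TMEM107, whose annotated exon contains U8. They stand among 59607 features in the total RNA tables and 60095 in the polyA tables. The genes were chosen with earlier results of these data known, and which values brought them to notice is not stated. Their counts in cytoplasmic total RNA were taken to be those values. Responses to auxin in that fraction, and any difference that contains such a response, are therefore given as a description with no p-value. Where calls among the 7 genes are counted there, nothing is read from them. The same measures in chromatin and in polyA RNA, and the levels of the untreated lines, were tested. These p-values hold only as far as chromatin and polyA values played no part in the choice. The untreated cytoplasmic libraries are part of the responses set aside, so tests on them are not independent of the choice.

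Each of 3 data sets (cytoplasmic total RNA, chromatin total RNA and cytoplasmic polyA RNA) held 12 libraries, 3 in each of 4 groups. The groups were DIS3-AID cells given 500 uM auxin for 1 h, DIS3-AID cells left untreated, control cells given the same auxin, and control cells left untreated. DIS3-AID cells are a CRISPR clone in which DIS3 is joined to the auxin-inducible degron (AID). Auxin leads a tagged protein to degradation through TIR1, a plant receptor that the DIS3-AID clone expresses constitutively and that the control line expresses too. A single clone stands for the DIS3-AID genotype, no library measured the DIS3 protein, and the cytoplasmic triplicates are described as technical. The p-values therefore measure only the spread between these samples.

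U3 and U8 are box C/D snoRNAs that act in the making of ribosomes: U3 base-pairs with the precursor rRNA and is needed for the early cleavages that release small-subunit rRNA, and U8 is needed for the processing of large-subunit rRNAs. Most human snoRNAs are cut out of introns, but U3 is transcribed from genes of its own with snRNA-type promoters, carries a hypermethylated cap, and is made as a precursor whose 3′ end is trimmed. The RNA exosome, to which DIS3 belongs, is the main 3′ to 5′ RNA-degrading complex of the nucleus. TMEM107 encodes a membrane protein of the ciliary transition zone, the gate at the base of the cilium.

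The U3 sequence itself shows how little separates the gene copies. The 217-base U3 RNA of SNORD3A (RNA sequence in DNA letters, hg38, chr17:19188016-19188232, plus strand, GENCODE 29 transcripts) is given with capitals at the 4 positions where another of the 5 copies differs, and is followed by its last 72 bases with the letters TGATGA and CTGA in capitals, which occur in the C and D boxes of this RNA class.
SNORD3A: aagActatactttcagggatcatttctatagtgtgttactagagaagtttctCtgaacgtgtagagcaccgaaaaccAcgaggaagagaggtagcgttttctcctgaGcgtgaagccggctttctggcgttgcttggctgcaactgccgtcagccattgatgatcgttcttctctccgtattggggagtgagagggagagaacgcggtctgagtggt
SNORD3A bases 146 to 217: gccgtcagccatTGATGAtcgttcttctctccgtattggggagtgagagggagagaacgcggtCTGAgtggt

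Counted from 1 at the 5′ end, with the SNORD3A base first, SNORD3B-1 and SNORD3B-2 both carried A78C and were identical to each other. SNORD3C carried G108A, and SNORD3D carried A4G, C53T and A78C. Identity between copies was therefore 98.16% at the least. TGATGA occurred once on the RNA strand of each of the 5 copies, at base 158, and not on the other strand. CTGA occurred at bases 53, 104 and 209 in 4 copies. In SNORD3D the first of these was missing, and the other strand held 2 matches in every copy. Among 197518 annotated transcripts of at least this length, 7.75% held TGATGA and 69.6% held CTGA within their first 217 bases.

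The annotated U3 genes are longer than the RNA. SNORD3A spans 699 bases (ENSG00000263934.4, chromosome 17, 19188016 to 19188714, plus strand), SNORD3B-1 spans 758 (ENSG00000265185.5, 19061912 to 19062669, plus strand), SNORD3B-2 spans 791 (ENSG00000262074.6, 19063346 to 19064136, minus strand) and SNORD3C spans 581 (ENSG00000264940.4, 19189665 to 19190245, minus strand). Counts of these 4 genes can therefore include reads from between 364 and 574 bases past the U3 end. SNORD3D is annotated as little more than U3 (ENSG00000277947.1, 19112419 to 19112636, minus strand, 218 bases), inside the non-coding gene AC007952.4 (ENSG00000262202.4, 19112000 to 19112636, same strand), which runs on downstream. The first 60 bases after U3 are shown because this flank is nearly the same in all copies. SNORD3B-2 and SNORD3C match SNORD3A in it, and AC007952.4 matches SNORD3B-1. Capitals mark differences from SNORD3A.
SNORD3A after U3 (chr17:19188233-19188292, plus strand): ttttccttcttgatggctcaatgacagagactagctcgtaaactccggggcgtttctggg
SNORD3B-1 after U3 (chr17:19062129-19062188, plus strand): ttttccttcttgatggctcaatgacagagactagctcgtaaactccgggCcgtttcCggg

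U8 is short enough to be shown in pieces: its first 30 bases, the 30 bases around its TGATGA, and its last 30 bases with both CTGA in capitals (hg38, chromosome 17, minus strand). SNORD118 (ENSG00000200463.1, 8173454 to 8173587, 134 bases) lies wholly within the 3′ UTR of a coding transcript of TMEM107 (8173237 to 8174254) on the strand of TMEM107 (ENSG00000179029.14, 8173237 to 8176399). Its TGATGA starts at base 55 and its CTGA at bases 116 and 130, and CTGA also occurred 2 times on the other strand.
SNORD118 5′ end (chr17:8173558-8173587): tcgtcaggtgggataatccttacctgttcc
SNORD118 middle (chr17:8173516-8173545): cagattagaacaTGATGAttggagatgcat
SNORD118 3′ end (chr17:8173454-8173483): cttgcaacaccCTGAttgctcctgtCTGAt

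These overlaps bear on what the counts mean. A second SNORD3D record, 1 base shorter, differed from the first by at most 7 reads in any cytoplasmic total RNA library, so reads appear to have been counted for every feature they overlap. A U8 read is then also a TMEM107 read, and a SNORD3D read is also an AC007952.4 read. In turn, a read of TMEM107 mRNA over the U8 stretch is also counted for U8. How reads that match several U3 copies were assigned is not given in the sources used here. Among 50-base windows inside U3, 11.9% were unique to 1 of the 5 copies in SNORD3A, none in SNORD3B-1 or SNORD3B-2, 29.8% in SNORD3C and 31.5% in SNORD3D. Values of single U3 copies are for this reason uncertain, and the sum over the 5 genes is given beside them.

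Library totals were 59450421 to 122574347 counts for the cytoplasmic total RNA libraries. They were 50278746 to 139011514 counts for chromatin, and 25859633 to 33068609 counts for the polyA libraries. Levels are given as CPM, each count scaled to library size after TMM normalization, and log2 changes come from edgeR's quasi-likelihood fit. DIS3 mRNA in the cytoplasm had 45.8 ± 0.94 CPM in DIS3-AID cells with auxin, 50.1 ± 2.64 CPM in untreated DIS3-AID cells, 93.1 ± 3.21 CPM in control cells with auxin and 90.5 ± 2.58 CPM in untreated control cells (SD, n = 3 each). The untreated clone thus had less DIS3 mRNA than the control line (log2 -0.85, adjusted p = 2.38e-09), while auxin in the clone gave no call (adjusted p = 0.0637), and the tag acts on the protein. All 9 colon epithelial markers had counts in total RNA (324 to 3570 CPM summed), 5 fibroblast markers summed to 8.67 to 18.05 CPM with none at 0 throughout, and 5 blood markers to at most 0.582 CPM. The 4 nuclear markers MALAT1, NEAT1, MEG3 and KCNQ1OT1 summed to 3625 to 5289 CPM in chromatin libraries and 835 to 1020 CPM in cytoplasmic ones, and 4 cytoplasmic markers to 271 to 371 CPM in chromatin and 13020 to 15940 CPM in cytoplasm.

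In cytoplasmic total RNA, the 3 libraries of DIS3-AID cells with auxin lay above the 9 others for each of the 7 genes. SNORD3A, by far the most abundant copy, had 106, 117 and 95.5 CPM in DIS3-AID cells with auxin, against 41.4, 45.1 and 29.6 CPM in untreated DIS3-AID cells. In control cells it had 67.6, 62.3 and 52.8 CPM with auxin and 90.8, 71.1 and 61.7 CPM untreated. The treated clone lay above all other libraries for this gene, but its untreated libraries lay below all of the control line, so the gap to the control line was smaller than the gap to the untreated clone.

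The other U3 copies showed a wider gap. SNORD3B-2 had 38.2, 44.99 and 42.8 CPM in DIS3-AID cells with auxin, against 8.45, 7.47 and 8.78 CPM in untreated DIS3-AID cells. SNORD3D, the copy annotated without flank, had 23.8, 28.0 and 22.0 CPM in DIS3-AID cells with auxin, against 4.44, 4.91 and 3.64 CPM in untreated DIS3-AID cells. SNORD3B-1 averaged 13.5 ± 1.58 CPM with auxin and 2.31 ± 0.216 CPM without it in the DIS3-AID clone, and SNORD3C averaged 3.78 ± 0.317 CPM with auxin and 0.659 ± 0.198 CPM without it (SD, n = 3 each). No library of the untreated groups reached the lowest treated DIS3-AID library for any of the 4.

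U8 had 15.4, 15.5 and 12.8 CPM in DIS3-AID cells with auxin, against 2.998, 3.16 and 1.91 CPM in untreated DIS3-AID cells. Control cells had 3.23, 2.64 and 2.35 CPM with auxin and 3.06, 2.77 and 2.56 CPM untreated, so the 9 other libraries overlapped one another and none came near the treated clone. TMEM107 had 31.9, 33.9 and 26.7 CPM in DIS3-AID cells with auxin, against 11.4, 12.8 and 9.15 CPM in untreated DIS3-AID cells.

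As log2 changes between DIS3-AID cells with auxin and untreated DIS3-AID cells, these came to 1.45 ± 0.18 (SE) for SNORD3A and 1.47 ± 0.10 for TMEM107. They lay between 2.35 (SNORD3B-2) and 2.55 (SNORD3B-1) for the other 5 genes, with U8 at 2.43 ± 0.15, or 5.37-fold. The median over all 23027 features tested was -0.05, and 21.1% of them were called higher (34.3% in either direction). The 7 genes are taken to have been noticed here, so nothing is read from the count of 7 of 7. Set against control cells with auxin, DIS3-AID cells with auxin were 0.80 higher on the log2 scale for SNORD3A, 1.24 for TMEM107, 2.40 for U8, and 2.66 to 3.01 for the other U3 copies. In these bulk libraries, more cells with the RNA and more RNA per cell cannot be told apart.

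**Figure D1:**
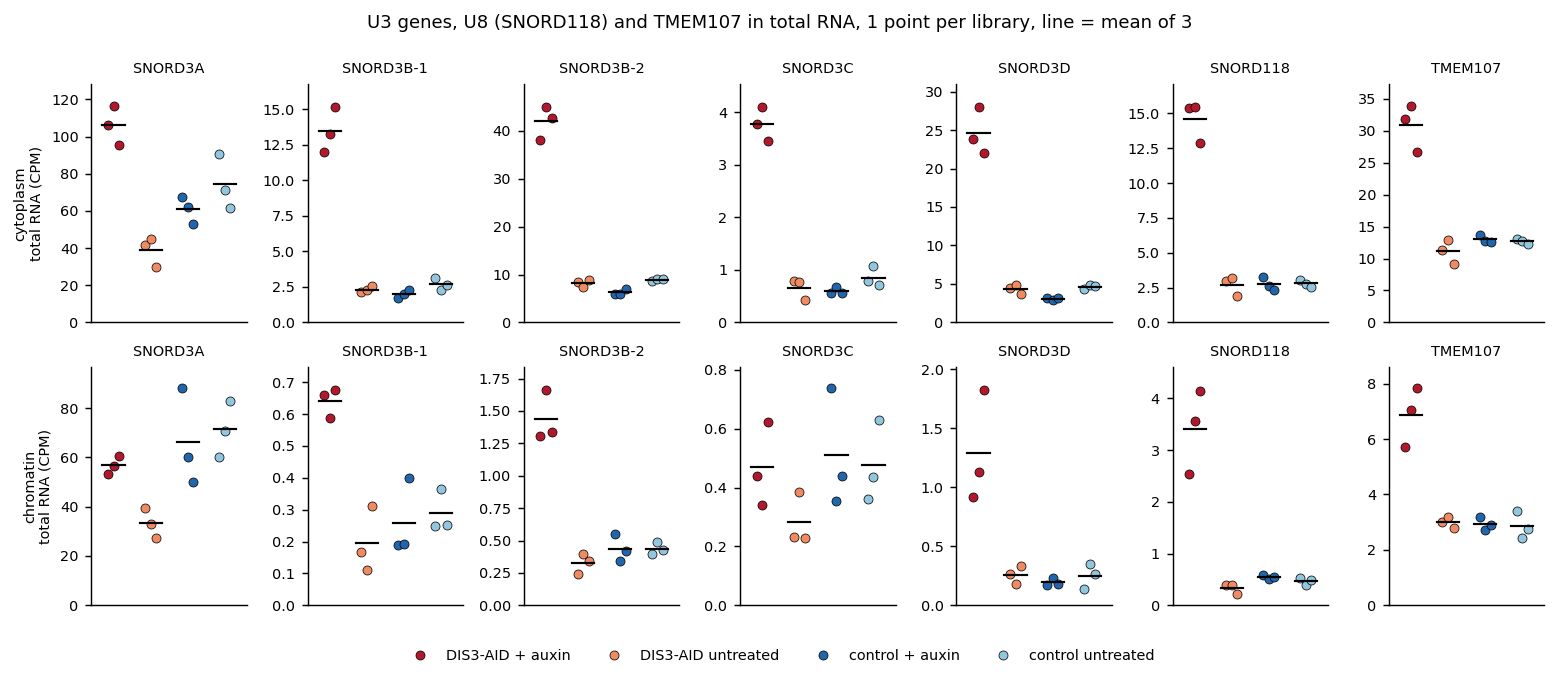
Levels (CPM, linear axes from 0) of each gene in cytoplasmic (top) and chromatin (bottom) total RNA. Each point is a library and each line the mean of 3, with groups from left to right as in the legend. In the cytoplasm the DIS3-AID libraries with auxin lie above all others for each gene; in chromatin this holds for SNORD3B-1, SNORD3B-2, SNORD3D, SNORD118 and TMEM107.

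With auxin in control cells, which carry TIR1 but no degron on DIS3, the U3 genes lay lower where the groups separated. SNORD3D had 3.15, 2.88 and 3.11 CPM in control cells with auxin, against 4.34, 4.82 and 4.69 CPM in untreated control cells. These groups did not overlap for SNORD3B-1, SNORD3B-2, SNORD3C and SNORD3D, which lay lower with auxin, and overlapped for SNORD3A, U8 and TMEM107. How many of all features separate in this way was not counted, so nothing is read from the number of genes that did. The log2 differences ran from -0.60 for SNORD3D to -0.29 for SNORD3A among U3 genes, with -0.03 for U8 and 0.03 for TMEM107. By adjusted p, which is a different measure, 0.0478% of all features were called in either direction. This was 11 features, or 62 with the replicate number as a block. Of the 7 genes, 1 was among them, against 2 with the block, 4 with no filter and 0 with RLE scaling, and nothing is read from this count.

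Summed over the 5 genes, U3 counts averaged 189.9 ± 14.9 CPM in cytoplasm of DIS3-AID cells with auxin, 54.3 ± 8.17 CPM in untreated DIS3-AID cells, 72.8 ± 6.77 CPM in control cells with auxin and 91.6 ± 14.7 CPM in untreated control cells (SD, n = 3 each). The log2 ratio of the first pair was 1.81, or 2.43 without SNORD3A. The make-up of the sum differed between groups. SNORD3A gave 53.4 to 57.7% of U3 counts in DIS3-AID cells with auxin and 65.8 to 74.5% in untreated DIS3-AID cells. It gave 80.4 to 85.5% in control cells with auxin and 78.2 to 84.4% in untreated control cells, and these 2 ranges overlapped.

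Over annotated lengths that differ in kind, levels per kilobase set the genes beside each other. In cytoplasm of DIS3-AID cells with auxin they were 151.7 ± 15.1 CPM per kb for SNORD3A, 112.8 ± 13.98 for SNORD3D, 108.7 ± 11.1 for U8, 53.1 ± 4.38 for SNORD3B-2, 17.8 ± 2.08 for SNORD3B-1, 9.76 ± 1.17 for TMEM107 and 6.50 ± 0.545 for SNORD3C (SD, n = 3). SNORD3D and U8 differed by less than their spread. In untreated control cells SNORD3A stood further ahead at 106.6 ± 21.2 CPM per kb, with SNORD3D at 21.2 ± 1.15, U8 at 20.9 ± 1.88 and SNORD3B-2 at 11.3 ± 0.325. TMEM107 (4.02 ± 0.126) and SNORD3B-1 (3.54 ± 0.52) were within each other's range, above SNORD3C at 1.47 ± 0.32. The order depends on the annotation. SNORD3D is annotated without flank, and the longer AC007952.4 around it had 82.35 ± 6.84 CPM per kb in cytoplasm of DIS3-AID cells with auxin. TMEM107 was divided by 3163 bases, and its counts include U8 reads.

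In the chromatin fraction, 6 of the 7 genes were called higher with auxin in DIS3-AID cells, and U8 had the largest log2 change of the 7. Of all 24966 features tested, 11% were called higher and 20.5% in either direction. U8 had 2.55, 3.55 and 4.15 CPM in DIS3-AID cells with auxin, against 0.390, 0.400 and 0.214 CPM in untreated DIS3-AID cells, from 185, 188 and 239 reads and 35, 29 and 13 reads. The log2 change was 3.30 ± 0.21 (SE), or 9.82-fold, with adjusted p = 4.81e-09 in edgeR's quasi-likelihood test. In control cells U8 averaged 0.541 ± 0.0371 CPM with auxin and 0.465 ± 0.0746 CPM untreated, and the auxin effect in DIS3-AID cells exceeded that in control cells by 3.12 ± 0.33 (adjusted p = 8.95e-06).

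The log2 changes of the U3 copies in chromatin ran from 0.73 for SNORD3C to 2.32 for SNORD3D. They carry the uncertainty of read assignment given above, and no test compared the copies with each other. SNORD3B-2 had 1.31, 1.66 and 1.34 CPM in DIS3-AID cells with auxin, against 0.245, 0.400 and 0.346 CPM in untreated DIS3-AID cells (log2 change 2.13 ± 0.20, adjusted p = 8.02e-07). SNORD3D rose by a similar amount (2.32 ± 0.30, adjusted p = 2.11e-05), with 0.922, 1.13 and 1.82 CPM in DIS3-AID cells with auxin and 0.267, 0.179 and 0.329 CPM in untreated DIS3-AID cells. SNORD3B-1 also rose (1.76 ± 0.31, adjusted p = 0.000502). For these 3 copies the treated and untreated clone did not overlap, and the response exceeded that of control cells: by 2.11 for SNORD3B-2 (adjusted p = 0.000157), 2.58 for SNORD3D (adjusted p = 0.00156) and 1.92 for SNORD3B-1 (adjusted p = 0.00676).

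SNORD3A, which made up most U3 counts on chromatin (93.1 to 94.1% in DIS3-AID cells with auxin, 95.8 to 97.7% in untreated DIS3-AID cells), had a smaller change. It had 53.2, 56.7 and 60.4 CPM in DIS3-AID cells with auxin, against 39.4, 32.8 and 27.5 CPM in untreated DIS3-AID cells (0.77 ± 0.20, adjusted p = 0.0194). Control cells had 88.1, 59.99 and 50.2 CPM with auxin and 60.1, 70.9 and 83.1 CPM untreated, so the treated clone lay within the range of the control line. The call was lost without a filter on low counts (adjusted p = 0.0867) and without untreated DIS3-AID replicate 2 (0.0819), untreated DIS3-AID replicate 3 (0.0573) or treated DIS3-AID replicate 3 (0.0821). Its response minus that of control cells was 0.88 ± 0.28 (adjusted p = 0.0522), and was called with the replicate block (0.0169), with DESeq2 (0.0366), and without untreated control replicate 1 (0.0367) or treated control replicate 1 (0.00169).

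SNORD3C, whose 364 flanking bases match those of SNORD3A throughout, had 0.440, 0.340 and 0.625 CPM in DIS3-AID cells with auxin and 0.234, 0.386 and 0.230 CPM in untreated DIS3-AID cells. These overlapped, and the change of 0.73 ± 0.34 was not called (adjusted p = 0.146). Auxin in control cells gave 0 calls among the 7 genes in chromatin with edgeR, 0 at an unadjusted p under 0.05 and 0 with DESeq2, where 17% of all features were called in either direction. In all, 5 of the 7 genes had a response above that of control cells (background 8.54% higher, 17.7% in either direction), and the same number were higher in DIS3-AID than control cells when both had auxin (18.9% and 39.3%). SNORD3A (-0.22, adjusted p = 0.411) and SNORD3C (-0.13, adjusted p = 0.779) were not. The 5 genes are not independent, since TMEM107 counts include the U8 reads and the U3 copies are near-identical in sequence.

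**Figure D2:**
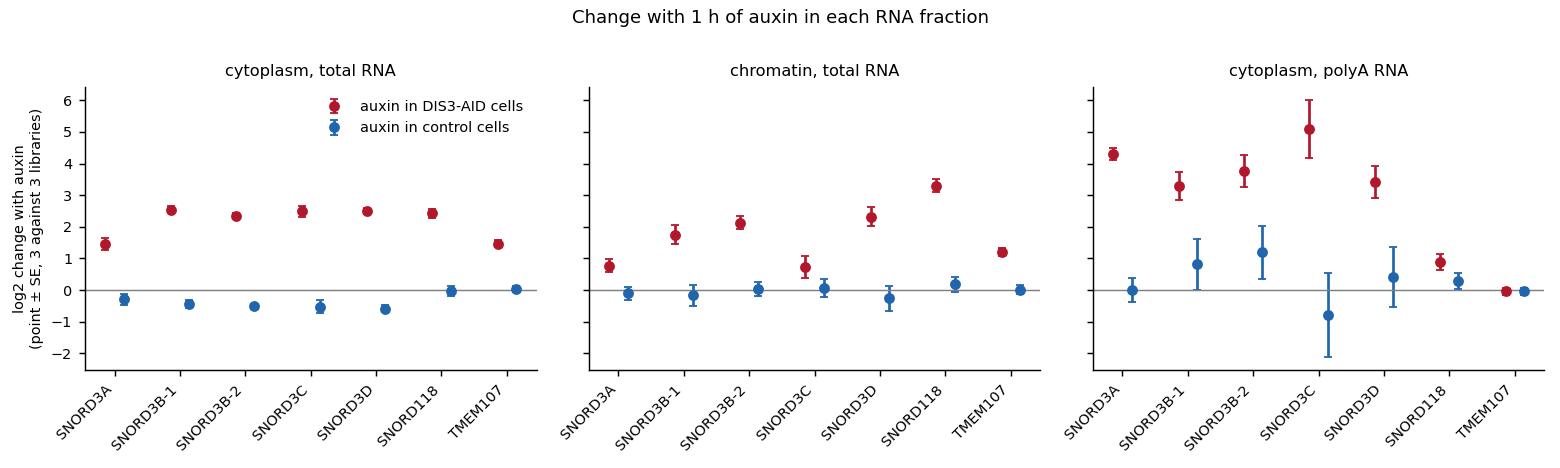
Log2 change with auxin (points, with standard errors as bars) of each gene in DIS3-AID cells and in control cells, in the 3 RNA fractions. The DIS3-AID points lie above 0 for each gene in total RNA, from 0.73 to 3.30, and TMEM107 in polyA RNA lies at -0.04 in both lines.

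Because U8 lies inside TMEM107, the reads of TMEM107 were split. U8 reads made up 47.2% of TMEM107 counts in cytoplasm of DIS3-AID cells with auxin, 23.9% in untreated DIS3-AID cells, 21.0% in control cells with auxin and 22.0% in untreated control cells (means of 3). In chromatin the shares were 49.3, 11.1, 18.4 and 16.2% for the same groups. With U8 reads taken off, a choice made after seeing the data, TMEM107 in cytoplasm averaged 16.3 ± 2.30 CPM in DIS3-AID cells with auxin, 8.45 ± 1.22 CPM in untreated DIS3-AID cells, 10.3 ± 0.226 CPM in control cells with auxin and 9.92 ± 0.162 CPM in untreated control cells. The log2 change of the clone was then 0.94 in place of 1.47. Reads that lie partly in U8 and partly in the flanking exon are removed with U8 in this count.

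In chromatin the remainder averaged 3.45 ± 0.267 CPM with auxin and 2.66 ± 0.11 CPM without it in DIS3-AID cells (SD, n = 3). Its change was 0.37 ± 0.12 (adjusted p = 0.0346), against 1.19 ± 0.13 (adjusted p = 2.69e-06) for the whole gene. The response minus that of control cells was 1.17 for the whole gene (adjusted p = 0.000277) and 0.39 ± 0.17 without U8 reads, which was not called (adjusted p = 0.122). With auxin in both lines the remainder was 0.52 higher in the DIS3-AID clone (adjusted p = 0.00265).

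**Figure D3:**
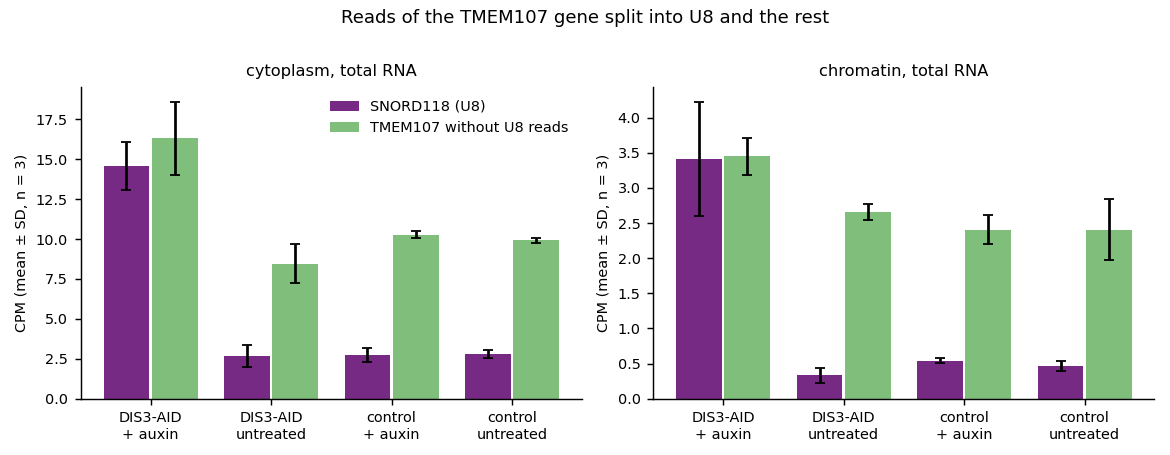
Reads of the TMEM107 gene in total RNA, as those counted for U8 (SNORD118) and the rest, in CPM (bars, mean of 3 libraries, error bars SD; the axes of the panels differ). U8 reaches 14.6 CPM in cytoplasm and 3.42 CPM in chromatin of DIS3-AID cells with auxin, about level with the rest of the gene, and is the smaller part in each other group.

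AC007952.4, which contains SNORD3D, offered the same split at a U3 gene. SNORD3D reads were 46.8% of its cytoplasmic counts in DIS3-AID cells with auxin, 45.3% in untreated DIS3-AID cells, 43.3% in control cells with auxin and 44.2% in untreated control cells. Reads that span the U3 end are removed with SNORD3D in this split, if reads were counted for every feature they overlap. The remaining reads, from the 419 bases past SNORD3D, averaged 27.9 ± 1.84 CPM in DIS3-AID cells with auxin. In untreated DIS3-AID cells they averaged 5.21 ± 0.198 CPM. Their log2 change of 2.42 was thus close to the 2.50 of SNORD3D. In chromatin they rose by 2.06 ± 0.21 (adjusted p = 1.91e-06), from counts that were low throughout, with 1.36 ± 0.139 CPM in DIS3-AID cells with auxin and 0.326 ± 0.0774 CPM in untreated DIS3-AID cells. The response exceeded that of control cells by 2.03 ± 0.33 (adjusted p = 0.000346).

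The responses of the 2 fractions were set side by side in one fit of all 24 total RNA libraries, with a median difference of 0.16 over 27418 features. One term is the cytoplasmic response through which the genes are taken to have been noticed, so the differences are a description. The log2 response in chromatin minus that in cytoplasm was 1.05 ± 0.31 (SE) for U8, or 0.72 with library sizes alone, a scaling that gave a median over all features of -0.17. It was -1.58 ± 0.40 for SNORD3C, -0.50 ± 0.31 for SNORD3A, -0.60 ± 0.35 for SNORD3B-1 and -0.03 ± 0.26 for SNORD3B-2. For TMEM107 it was -0.09 ± 0.17, and for SNORD3D 0.00. No standard error is given for SNORD3D, since one derived from F is unstable at a change so close to 0. In the separate fits the SNORD3D response had a standard error of 0.295 in chromatin and 0.101 in cytoplasm. Of all features 33.1% were called in either direction, and nothing is read from the 2 of 7 genes past the same threshold.

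The steady distribution of the genes was set by the chromatin level against the cytoplasmic level in untreated control cells. All 7 had a lower share of chromatin than of cytoplasmic RNA, where 44% of all features were called lower and 90.2% in either direction. SNORD3B-2 (-5.01), SNORD3D (-4.92), SNORD3B-1 (-3.93) and U8 (-3.19) were the lowest, with TMEM107 at -2.77 and SNORD3C at -1.44 (adjusted p at most 5.52e-07). SNORD3A had 60.1, 70.9 and 83.1 CPM in chromatin, scaled within that fraction, and 90.8, 71.1 and 61.7 CPM in cytoplasm, scaled likewise. Its difference in the joint fit was -0.71 ± 0.22 (adjusted p = 0.0059). With library sizes alone it was -0.04 and not called (adjusted p = 0.84), at a median over all features of 0.76 in place of 0.10. These ratios compare shares of each library and not numbers of molecules.

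In cytoplasmic RNA selected for a poly(A) tail, U3 reads were few except in DIS3-AID cells with auxin. SNORD3A had 262, 284 and 267 reads in DIS3-AID cells with auxin, against 16, 16 and 9 reads in untreated DIS3-AID cells. Control cells had 7, 11 and 7 reads with auxin and 8, 9 and 10 reads untreated. The ratio of summed CPM between treated and untreated clone was 19.9 (95% exact interval 14.5 to 27.9, counting error only), and the log2 change of 4.31 ± 0.18 had adjusted p = 1.1e-16 in edgeR's quasi-likelihood test. The response exceeded that of control cells by 4.30 ± 0.46 (adjusted p = 2.21e-07), 1 of 7 genes called where 4.85% of features were higher and 5.84% were called in either direction.

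The other U3 copies had a few reads per library outside the treated clone. Summed over 3 libraries, SNORD3B-1 had 119 reads in DIS3-AID cells with auxin and 12 in untreated DIS3-AID cells (ratio 9.95, interval 5.49 to 19.8), SNORD3B-2 had 114 and 8 (14.3, 7.02 to 33.9), and SNORD3D had 78 and 7 (11.2, 5.18 to 28.7). SNORD3C had 46 reads in DIS3-AID cells with auxin and 1 in untreated DIS3-AID cells (46.2, interval 7.88 to 1860). These 4 copies passed the filter on low counts only through the treated clone, so they had to differ and their calls are not counted as support. In that comparison 13.2% of all 16651 features were called higher and 17% in either direction. Of the 3 genes that would pass without the treated clone, SNORD3A and U8 were called higher and TMEM107 was not.

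Reads counted for U8 were higher in treated DIS3-AID cells by a smaller amount. TMEM107 mRNA that carries U8 in its 3′ UTR would also give such reads, and its part here was not tested. U8 had 36, 38 and 45 reads in DIS3-AID cells with auxin, against 26, 20 and 18 reads in untreated DIS3-AID cells. Control cells had 24, 30 and 35 reads with auxin and 29, 23 and 27 reads untreated. Scaled to library size, U8 had 1.27, 1.44 and 1.63 CPM in DIS3-AID cells with auxin and 0.783, 1.04 and 1.35 CPM in control cells with auxin, which overlapped, and the difference of 0.46 ± 0.24 between them was not called (adjusted p = 0.13). Between treated and untreated DIS3-AID cells the log2 change was 0.90 ± 0.25 (adjusted p = 0.0104), a call lost without untreated DIS3-AID replicate 2 (adjusted p = 0.0522) or treated DIS3-AID replicate 3 (0.0603), and the response minus that of control cells was 0.60 ± 0.36 (adjusted p = 0.42). Auxin in control cells gave 0 calls among the 7 genes with edgeR, 0 at an unadjusted p under 0.05 and 0 with DESeq2 (background 0.048% in either direction, which was 8 features, or 24 with the replicate block).

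PolyA and total RNA of the cytoplasm were then fitted together, again as a description, since the response in cytoplasmic total RNA is one of the terms. The log2 response in polyA minus that in total RNA was 2.99 ± 0.41 (SE) for SNORD3A and -1.40 ± 0.33 for U8, with a median of 0.16 over 18669 features. It was 2.93 ± 1.17 for SNORD3C, 1.58 ± 0.49 for SNORD3B-2, 1.08 ± 0.53 for SNORD3D and 0.88 ± 0.49 for SNORD3B-1, all copies that passed the filter on low polyA counts only through the treated clone. The SNORD3B-2 value was 0.93 without polyA untreated DIS3-AID replicate 1, 0.90 without replicate 2 and 2.73 without replicate 3. Of all features 8.29% were called in either direction, which was 1548 features, or 3445 with the replicate block, and the values of SNORD3A (2.98) and U8 (-1.40) hardly moved with it. The U8 values can include reads of TMEM107 mRNA that carries U8, whose part was not tested. TMEM107 itself is not compared here. PolyA tables appear to count protein-coding genes over their non-coding models, since 9 of 5873 genes with coding models only were listed there and 11962 of 11965 with a non-coding model, and the 3 non-coding models of TMEM107 cover 0 bases of U8. Within polyA RNA TMEM107 had 8.11 ± 0.126 CPM with auxin and 8.31 ± 1.23 CPM without it in DIS3-AID cells (SD, n = 3 each; log2 -0.04, adjusted p = 0.901).

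The polyA libraries of the treated clone also had more of the 4 nuclear markers, all detected, which summed to 91.5 to 97.99 CPM in DIS3-AID cells with auxin, 52.4 to 56.8 CPM in untreated DIS3-AID cells, 55.6 to 58.7 CPM in control cells with auxin and 46.1 to 54.0 CPM in untreated control cells. In cytoplasmic total RNA the sums were 835 to 935 CPM in DIS3-AID cells with auxin and 869 to 988 CPM in untreated DIS3-AID cells. Their part in the U3 result was not tested.

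**Figure D4:**
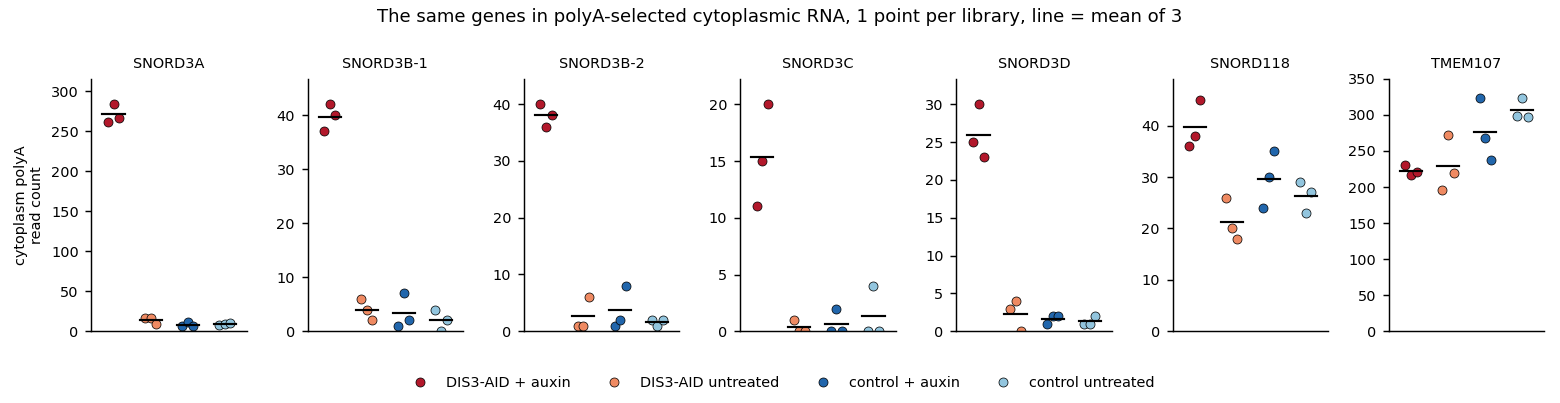
Read counts (linear axes from 0) of each gene in polyA-selected cytoplasmic RNA. Each point is a library and each line the mean of 3, with groups from left to right as in the legend. U3 genes have reads in number only in DIS3-AID cells with auxin, where SNORD3A reaches 262 to 284 reads; U8 has 36 to 45 reads there and 18 to 35 in the other libraries, and TMEM107 shows no such step.

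Before any auxin, SNORD3A was lower in untreated DIS3-AID cells than in untreated control cells in cytoplasm (log2 -0.94 ± 0.18, or 0.52-fold, adjusted p = 0.00453) and in chromatin (-1.10 ± 0.20, or 0.467-fold, adjusted p = 0.00163), with no overlap between the libraries in either fraction. It was 1 of 7 genes called in each fraction, where 12.4% of cytoplasmic and 17.4% of chromatin features were called lower, and 22.1 and 32.5% in either direction, so the count itself stands near the background. The cytoplasmic call was lost when only the 6 libraries compared were fitted (-0.92, adjusted p = 0.0523). The untreated DIS3-AID libraries in cytoplasm are also the baseline of the response through which the genes are taken to have been noticed. The cytoplasmic p-value is therefore not independent of the choice of genes. SNORD3C in chromatin had -0.79 ± 0.31 and was not called (adjusted p = 0.0612), but was called lower with no filter (0.00698), with the 6 libraries alone (0.0345), and without untreated control replicate 1 (0.0349) or untreated DIS3-AID replicate 2 (0.0385). The others lay between -0.54 and 0.11 in both fractions, with U8 at -0.06 in cytoplasm (adjusted p = 0.849) and -0.48 in chromatin (adjusted p = 0.18).

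For the U3 sum the untreated lines had 54.3 ± 8.17 CPM (DIS3-AID) and 91.6 ± 14.7 CPM (control) in cytoplasm, a log2 ratio of -0.76, and 34.3 ± 5.82 CPM (DIS3-AID) and 72.8 ± 11.7 CPM (control) in chromatin, a ratio of -1.09. Without SNORD3A these were -0.14 and -0.45. In polyA RNA SNORD3A lay the other way, with 0.569, 0.551 and 0.353 CPM in untreated DIS3-AID cells and 0.253, 0.313 and 0.311 CPM in untreated control cells. These did not overlap, and the difference of 0.76 ± 0.33 was not called (adjusted p = 0.144). There 0 of the 7 genes were called between the untreated lines with edgeR and with DESeq2, and 2 had an unadjusted p under 0.05 (background 11.9% in either direction).

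The proteins that work with U3 and U8 were read from lists chosen for these RNAs, with earlier results of these data known. The counts, medians and p-values of these lists are a description and no independent support. Beside each count in cytoplasm stands the share of all features called with auxin in DIS3-AID cells, 21.1% higher and 13.2% lower. In cytoplasmic total RNA of DIS3-AID cells with auxin against untreated, 0 of 34 genes of the small-subunit processome, the particle built around U3, were called higher and 2 lower, BMS1 (log2 -0.16, adjusted p = 0.0225) and PDCD11 (-0.14, adjusted p = 0.023), with a median of -0.06 against -0.05 over all features. Of 5 genes of box C/D core proteins and the U3-specific RRP9, NOP58, itself a host of snoRNAs, was higher (0.45, adjusted p = 1.61e-06) and NOP56 lower (-0.12, adjusted p = 0.0376). Among 20 genes of capping, transport and 3′ end maturation 0 were higher and 4 lower, among them the export receptor XPO1 (-0.18, adjusted p = 0.00236) and the deadenylase PARN (-0.14, adjusted p = 0.0275). Assembly factors had 0 of 12 higher and 3 lower, led by ZNHIT3 (-0.23, adjusted p = 0.0428), and factors tied to U8 and the large subunit 0 of 13 higher and LAS1L lower (-0.13, adjusted p = 0.0327).

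Factors of snRNA-type promoters and the Integrator complex had 1 of 29 higher, the promoter-binding ZNF143 (0.71, adjusted p = 6.96e-09), and 6 lower, from SNAPC2 (-0.23) to ELL2 (-0.15). Exosome subunits and adaptors had 2 of 19 higher, EXOSC6 (0.26, adjusted p = 3e-04) and ZFC3H1 (0.21, adjusted p = 0.00647), and 2 lower, EXOSC1 (-0.18) and RBM7 (-0.17). Of 16 ciliary partners of TMEM107, 3 were higher, TMEM17 (0.45), B9D1 (0.36) and TCTN1 (0.20), and 4 lower, led by TCTN2 (-0.26). In chromatin, where 11% of all features were called higher and 9.54% lower, these 8 lists had medians between -0.06 and 0.05, against 0.00 over all features, and at most 3 calls in 1 direction in any of them. In polyA RNA, where 13.2% were called higher and 3.88% lower, at most 1 gene of any of them was called. Before auxin, the processome list had more genes called higher than lower in the clone in cytoplasm and polyA RNA, but not in chromatin. In untreated DIS3-AID against untreated control cells 14 of 34 genes were higher and 1 lower in cytoplasm (9.67% of all features higher), 3 higher and 4 lower in chromatin (15.2% higher), and 16 of 30 higher and 0 lower in polyA RNA (6.22% higher). With auxin in both lines 21 of 30 were higher in polyA RNA (22% of all features).

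A further list held other RNAs with caps or snRNA-type promoters. This list was chosen with earlier results of these data known, so its counts, medians and p-values are a description and no independent support. In cytoplasm 11 of 19 were higher and 0 lower, with a median of 1.41 against -0.05 over all features, of which 21.1% were higher. RNU5A-1 (2.64, adjusted p = 2.45e-12), SNORD13 (2.41, adjusted p = 1.41e-13), RNU5B-1 (2.33, adjusted p = 1.43e-09) and RNU4-1 (2.27, adjusted p = 1.72e-05) changed most. RMRP (-0.10), RN7SK (-0.11) and RPPH1 (-0.14), RNAs made by RNA polymerase III, were not called there. In chromatin 8 were higher and 1 lower, with a median of 0.37 against 0.00 over all features, of which 11% were higher, led by RNU11 of the minor spliceosome (1.86, adjusted p = 2.55e-06), SNORD13 (1.41, adjusted p = 9.81e-05) and RNU1-1 (1.10, adjusted p = 0.00597), while RNU4-2 was lower (-0.52, adjusted p = 0.0467). There RPPH1 (0.42, adjusted p = 0.0144) and RMRP (0.30, adjusted p = 0.0495) were called higher as well. The untreated clone lay below the untreated control line for this list in chromatin, with 0 higher and 8 lower (17.4% of all features lower) and a median of -0.41. With auxin in both lines 4 were higher and 3 lower in DIS3-AID cells, with a median of 0.13 (18.9% of all features higher and 20.4% lower). In polyA RNA 10 could be tested and 3 were higher, against 13.2% of all features, RNU4ATAC (4.10, adjusted p = 2.16e-05), SNORD13 (3.85, adjusted p = 7.27e-05) and TERC, the telomerase RNA (1.68, adjusted p = 0.000255). Whether these genes passed the filter on low counts only through the treated clone was not checked, so nothing is read from their number. U1, U4 and U5 genes have near-identical copies, so their single values carry the same uncertainty as those of U3.

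Features with the most similar profile were found as those with the smallest root mean square (RMS) difference of centred log2 levels over the 8 total RNA groups, among 27418 features. For U8 the nearest named ones were the variant U1 genes RNVU1-19 (0.25) and RNVU1-25 (0.27), both snRNAs, and the other 3 of the nearest 5 were assembled loci without a symbol. For SNORD3A they were an assembled locus (0.23), LCDR (0.29), C11orf71 (0.30), the pseudogene GXYLT1P3 (0.30) and the potassium channel gene KCNJ5 (0.31). The other U3 copies lay further off, at 0.72 for SNORD3C and between 1.73 and 2.18 for the remaining 3. For TMEM107 they were MARCHF6-DT (0.17), ENSG00000267073 (0.18), ARHGAP5-AS1 (0.18), HOXC-AS2 (0.19) and LINC00326 (0.20), all non-coding. These distances are a description over group means.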

How the data were processed

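Deposited tables of read counts per feature, 1 per library, made by the authors, were used for all 36 libraries. Per the submitters' processing notes, the tools were featureCounts 2.0.0, STAR 2.7.3a and Cufflinks 2.2.1, and the build was hg38. The settings for strand, multi-mapped reads and overlapping features are not given in the sources used here. Per the labels' protocols the libraries came from a stranded kit. Symbols, positions and sequences came from GENCODE 29. The 7 genes and the 9 lists were chosen with earlier results of these data known.

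The 12 libraries of a data set were fitted together in edgeR 4.0.16 by robust quasi-likelihood, after filterByExpr (min.count 10) and TMM scaling. Benjamini-Hochberg adjustment ran over all features, with a threshold of adjusted p < 0.05. Standard errors are the absolute log2 change over the square root of F, a ratio that is unstable at changes very close to 0. Fractions were compared in joint fits of 24 libraries. DESeq2 1.42.0, RLE scaling, library sizes alone, no filter, a replicate block, the 6 libraries compared alone and leaving out each library were the alternatives. R 4.3.3 and Python 3.11.15 were used, and the fits were tested on simulated data. Named were the 7 genes, features overlapping them, at most 4 called genes of each list per direction with the largest change, DIS3, and the 5 features nearest in profile.

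Replicates of a group differed beyond counting error (chi-square per degree of freedom 2.47 to 36.7), so none was a duplicate. Same-numbered libraries deviated together in every pair (r over 0.1, features with a mean count of at least 500) for auxin in control cytoplasm in total RNA (0.188 to 0.408) and in polyA RNA (0.176 to 0.258), and for the response in polyA against total RNA (0.268 to 0.499). There the numbers, from the library titles, were taken as pairs, and the blocked fit is given beside the fit without the block, which stays the main one. The biological coefficient of variation was 6.59% in cytoplasmic total RNA, 6.53% in chromatin and 6.07% in polyA RNA. Exact intervals cover counting error only.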

Additional observations from a re-analysis of the deposited data

Results flagged for a closer look

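Several values stood out because a response differed between the lines. In chromatin the response to auxin was larger in the DIS3-AID clone than in control cells, past the test, for SNORD3B-1 (log2 1.92), SNORD3B-2 (2.11), SNORD3D (2.58), SNORD118 (3.12) and TMEM107 (1.17, of which 0.39 and no call stayed without U8 reads). In polyA RNA the same difference passed for SNORD3A (4.30).

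In cytoplasmic total RNA every DIS3-AID library with auxin lay above the untreated clone, and every control library with auxin lay below the untreated control line, for 4 U3 genes. The log2 difference between these opposite changes, taken from group means, was 2.97 for SNORD3B-1, 2.86 for SNORD3B-2, 3.04 for SNORD3C and 3.11 for SNORD3D. This difference was not tested, since the genes are taken to have been noticed in that fraction. How many of all features separate in this way was not counted. The 4 copies are near-identical in sequence and not independent, so nothing is read from their number.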

How the results depend on the processing

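No value past the threshold changed sign under any alternative run, and 60 of 1676 gene values changed sign while uncalled. The number of the 7 genes called for auxin in control cytoplasm, 1, became 0 with RLE scaling, 4 with no filter, and 2 with the replicate block, with DESeq2 and with the 6 libraries alone, and was 0 to 1 when 1 library was left out. Between the untreated lines in cytoplasm it was 0 with the 6 libraries alone and 1 to 2 when 1 library was left out, in place of 1. In chromatin it was 2 with no filter and with the 6 libraries alone, and 1 to 2 when 1 library was left out, in place of 1. For the polyA response above control cells it was 2 with no filter and with DESeq2, and 1 to 2 when 1 library was left out, in place of 1. For the chromatin minus cytoplasm response it was 1 with library sizes alone and 1 to 2 when 1 library was left out, in place of 2. The counts for control cytoplasm and for chromatin minus cytoplasm involve the response through which the genes are taken to have been noticed, and are a description. The count between the untreated lines in cytoplasm shares libraries with that response. The block changed no other call count by over 1.5 times. Without SNORD3A, a choice made after seeing the data, the U3 sum changed by log2 2.43 in cytoplasm, 1.85 in chromatin and 3.68 in polyA RNA with auxin in DIS3-AID cells, against 1.81, 0.82 and 4.10 with it. In control cytoplasm it changed by -0.52 against -0.33, and between untreated lines by -0.14 against -0.76 in cytoplasm and -0.45 against -1.09 in chromatin. Over all features, calls for auxin in control cytoplasm went from 11 to 4 (RLE), 245 (no filter), 62 (block) and 70 (DESeq2). For auxin in control polyA RNA they went from 8 to 36 (no filter), 24 (block) and 24 (DESeq2). For the polyA minus total response they went from 1548 to 689 (RLE), 809 (library sizes), 3445 (block) and 909 (DESeq2), and for chromatin minus cytoplasm from 9080 to 5899 (library sizes). Single libraries also moved such counts: auxin in control chromatin had 4242 calls, 2313 without untreated control replicate 3 and 2597 without treated control replicate 1, and the untreated lines in polyA RNA had 1976 calls, 1194 without control replicate 2 and 1302 without DIS3-AID replicate 1. The cause was not tested. Depth limits the U3 copies other than SNORD3A in polyA RNA, which had at most 8 reads in any library outside the treated clone, and their counts in chromatin.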
